A study of Mus musculus with 16 samples.

Results

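The 10 genes described here are targets of glucocorticoid hormones, encode metallothioneins, which these hormones also induce, or encode the glucocorticoid receptor itself: Tsc22d3, Fkbp5, Zbtb16, Klf9, Sgk1, Errfi1, Sult1a1, Mt1, Mt2 and Nr3c1. They were taken by their Ensembl identifiers from a table of 30153 mouse genes, and all 10 were among the 11415 genes that reached 1 TPM (a transcript abundance corrected for length and scaled to a fixed total) in at least 3 of 16 hearts and were tested. RNA from heart tissue was sequenced in 4 groups of mice, each heart from a separate animal per the series' design text. The first group held 5 aged Hap-I mice fed a western diet, and the second held 4 aged Hap-I mice with no diet stated. The third held 4 younger, adult Hap-I mice whose sample labels state a western diet, and the fourth held 3 adult C57/BL6 mice with no diet stated. Hap-I denotes C57/BL6 mice transgenic for the human AT1R gene (the angiotensin II receptor) in its haplotype I form, so this transgene was shared by all groups but the last. For the younger Hap-I mice the design text gives no diet, the sample labels were followed, and any reading of diet or age from that group rests on this choice. The promoter of the transgene, the number of founder lines, sex, age in months and hour of collection are not given in the sources used here.

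Glucocorticoids cross the cell membrane and bind the receptor encoded by Nr3c1, which chaperones hold in the cytosol in a form that can take up hormone. The loaded receptor moves to the nucleus, binds palindromic response elements and activates genes such as Tsc22d3, Fkbp5, Sgk1, Zbtb16, Klf9 and Errfi1. Circulating corticosterone in mice follows a daily rhythm and rises in stress, and the receptor is present in cardiomyocytes as well as in the other cells of the heart. Metallothioneins are small, cysteine-rich proteins that bind zinc and copper. Their genes respond to zinc through the transcription factor Mtf1, which binds metal response elements, and to glucocorticoids.

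The starts of Mt2 and Mt1 lie 6.42 kb apart on the same strand of chromosome 8, and RefSeq promoter windows (build GRCm38.p6, 250 bases before to 50 bases after a start) are shown for both because this pair varied together more closely than any other pair of the 10 genes. Capitals mark every match, on either strand, to TGCACNC or TGCGCNC, core forms of the metal response element. The Mt2 window is chr8:94172368-94172667 and the Mt1 window chr8:94178839-94179138, both on the plus strand.
Mt2: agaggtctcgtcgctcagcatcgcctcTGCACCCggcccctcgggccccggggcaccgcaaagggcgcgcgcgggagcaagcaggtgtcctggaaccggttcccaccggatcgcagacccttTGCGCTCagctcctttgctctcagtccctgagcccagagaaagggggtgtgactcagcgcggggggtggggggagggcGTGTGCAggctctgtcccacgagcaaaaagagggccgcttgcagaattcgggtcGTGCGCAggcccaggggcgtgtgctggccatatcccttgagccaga
Mt1: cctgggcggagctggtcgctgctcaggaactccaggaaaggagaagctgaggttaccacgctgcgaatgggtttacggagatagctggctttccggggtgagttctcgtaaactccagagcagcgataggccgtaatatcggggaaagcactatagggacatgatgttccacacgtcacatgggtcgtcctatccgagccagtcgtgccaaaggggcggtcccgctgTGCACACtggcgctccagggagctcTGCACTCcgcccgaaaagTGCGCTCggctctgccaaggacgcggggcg
The Mt2 window held 4 separate matches and the Mt1 window held 3, with no overlap between matches. Of 32851 windows of this length, 25.7% held at least 1 match to either form and 0.517% held 4 or more.

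Of the 10 genes, 8 had a window in that table (all but Zbtb16 and Nr3c1), with 16 windows in all. The full palindrome, a consensus of the glucocorticoid response element in which the arms AGAACA and TGTTCT flank NNN, was found in 1 of them, at a start of Sgk1 (chr10:21993640-21993939, plus strand), and it is shown in capitals.
Sgk1: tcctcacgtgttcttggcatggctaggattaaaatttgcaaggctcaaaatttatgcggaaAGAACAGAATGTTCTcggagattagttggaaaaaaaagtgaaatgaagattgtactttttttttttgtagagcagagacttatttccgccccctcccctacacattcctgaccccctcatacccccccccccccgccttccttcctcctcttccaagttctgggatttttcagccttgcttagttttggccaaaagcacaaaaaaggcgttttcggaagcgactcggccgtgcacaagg
The match begins at position -189 relative to that start, and 3 of the 32851 windows (0.00913%) held such a match. The single arm AGAACA was found on either strand in windows of Sgk1, Sult1a1 and Tsc22d3, and in 6233 of the 32851 windows. These are matches of letters and not measured binding sites.

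Some features of the libraries touch all that follows. Y-linked transcripts (Ddx3y, Eif2s3y, Kdm5d and Uty) were present in 11 hearts and near 0 in 5, which were replicates 1 to 3 of the aged western-diet group and replicates 1 and 2 of the younger one. Cardiomyocyte markers were high in every heart (summed level of 8 genes between 33540 and 50030 scaled TPM, TPM divided by a size factor per library), whereas Myh4 and Myh1 of skeletal muscle, Plin1 and Lep of adipocytes and Ly6g and Csf3r of neutrophils stayed under 1 TPM in all. The other genes of those lists were detected. The summed skeletal muscle list, which holds Acta1, a gene the heart also expresses, was 147.1 to 326.2 in aged western-diet hearts, 61.9 to 115.1 in aged Hap-I hearts, 43.0 to 185.8 in younger western-diet hearts and 42.9 to 102.1 in C57 hearts. The adipocyte sum was 0.0995 to 2.44, 0.149 to 17.7, 0.270 to 2.18 and 1.96 to 14.8 in these groups in the same order. The neutrophil sum was 3.15 to 37.6, 3.36 to 6.61, 5.68 to 58.7 and 2.28 to 8.82. The sum of 4 atrial markers, all detected, ranged from 2.33 to 31.2 in aged western-diet hearts, 3.08 to 2175 in aged Hap-I hearts, 3.27 to 676.7 in younger western-diet hearts and 49.3 to 3323 in C57 hearts. The sum of 5 fibroblast markers, also all detected, was 178.7 to 261.8, 218.8 to 284.6 and 200.1 to 274.6 in those 3 Hap-I groups, in that order, against 312.2 to 340.1 in C57 hearts. Mitochondrial transcripts took 31.1% to 46.1% of TPM. The libraries also differed by transcript length, measured as the rank correlation of length with each gene's difference from its mean over hearts. It was -0.192 to -0.082 in C57 hearts and 0.018 to 0.276 in aged Hap-I hearts. In aged western-diet hearts it was -0.176 to 0.307, and in younger western-diet hearts -0.254 to 0.184. The part of these features in the differences was not tested, beyond the refits with a covariate or the length correction named beside single results.

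The glucocorticoid-responsive genes mostly stood highest in adult C57 hearts and lower in the Hap-I groups, and among Hap-I hearts the aged animals on a western diet held the highest means. By group mean, 7 of the 10 genes were highest in C57 hearts, Fkbp5 and Sgk1 were highest in aged western-diet hearts, and Nr3c1 was highest in aged Hap-I hearts and lowest in C57 hearts. The lowest mean lay in aged Hap-I hearts for Tsc22d3, Sgk1, Errfi1, Mt1 and Mt2, and in younger western-diet hearts for Fkbp5, Zbtb16, Klf9 and Sult1a1. In a joint test over the 4 groups, 6 genes differed at an adjusted p under 0.05 (limma, Benjamini-Hochberg over all tested genes), where 18.3% of all genes did: Fkbp5 (adjusted p = 0.00621), Tsc22d3 and Sult1a1 (0.0126 each), Klf9 (0.0195), Sgk1 (0.0277) and Zbtb16 (0.0303). Mt2 (0.0718), Nr3c1 (0.129), Mt1 (0.164) and Errfi1 (0.342) did not pass. In these bulk samples, fewer cells of a type and less RNA per cell cannot be told apart, which bears on all the differences described. The joint calls of 5 of the 6 genes were lost in some other setting: without scaling for Tsc22d3, Klf9, Sgk1 and Zbtb16, with the atrial covariate for Klf9, Sgk1 and Zbtb16, with no filter for Sgk1 and Zbtb16, and among hearts with Y-linked transcripts for Fkbp5, Klf9 and Sgk1.

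**Figure D1:**
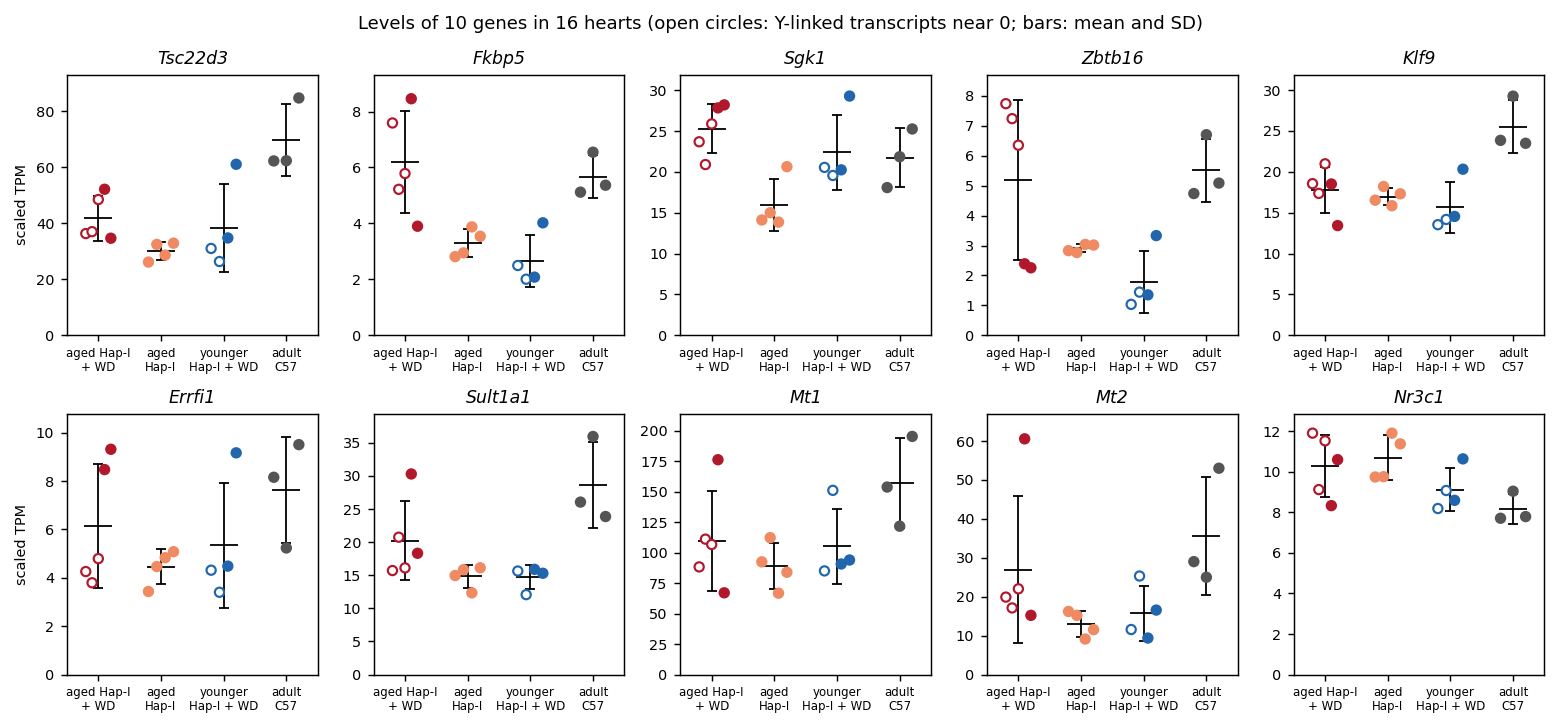
Level of each gene in every heart, in scaled TPM on the vertical axis, by group on the horizontal axis; points are hearts (open where Y-linked transcripts were near 0), horizontal bars the mean and vertical bars the SD (n = 5, 4, 4 and 3 from left to right). Tsc22d3 and Klf9 stand above all other groups in the 3 C57 hearts, and Zbtb16 splits the aged western-diet hearts into 3 at 6.35 or more and 2 at 2.39 or less.

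Comparisons with C57 hearts gave most of the calls, and each mixes the transgene with age, diet or both, which cannot be told apart there. All C57 hearts had Y-linked transcripts and both western-diet groups held hearts without them, so that difference enters their comparisons with C57 too. Between aged Hap-I and C57 hearts, 4 of the 10 genes fell (Tsc22d3, Sult1a1, Klf9 and Mt2), against 4.06% of all genes that fell and 11.2% called in either direction. There 8 genes lay wholly below C57 hearts and 1, Nr3c1, wholly above, against 16.1% and 18% of all genes. Between younger western-diet and C57 hearts, 5 fell (Klf9, Sult1a1, Fkbp5, Tsc22d3 and Zbtb16), against 1.5% of all genes that fell and 3.45% in either direction, and the same 5 lay wholly below, against 8.2%. Between aged western-diet and C57 hearts, 2 fell (Klf9 and Tsc22d3), against 9.57% of all genes that fell and 21.9% in either direction, and these 2 lay wholly below, against 11.2%. The median log2 fold change of the 10 genes was -0.68, -0.79 and -0.41 in these comparisons, beside -0.01, 0.01 and -0.00 over all genes. The 3 comparisons share the C57 hearts, so their directions are not independent of each other.

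The contrasts within Hap-I mice gave fewer calls. Diet within aged mice (aged western-diet against aged Hap-I hearts) called 0 of the 10 genes with limma, where 0.166% of all genes were called. An unadjusted p under 0.05 was found for 5 of the 10, and for 15.9% of all genes. The groups did not overlap for Tsc22d3, Fkbp5 and Sgk1, each higher in aged western-diet hearts, where 3.24% of all genes were separated in that direction, and the median log2 fold change of the 10 genes was 0.42, beside 0.00 over all genes. The summed skeletal muscle list was also separated between these groups, higher in aged western-diet hearts, and its part was not tested. All 4 aged Hap-I hearts had Y-linked transcripts, and 3 of the 5 aged western-diet hearts did not. Diet is therefore mixed with Y-linked presence in this contrast. Age within western diet (aged against younger western-diet hearts) called 1 gene, Fkbp5, which rose, against 1.67% of all genes that rose and 2.39% called in either direction. The 10 genes had a median of 0.18 there, beside -0.01 over all genes, and all 10 differences were positive. Aged Hap-I against younger western-diet hearts, where age, diet and Y-linked presence differ together, called 0 with limma, against 2.14% of all genes. Of the 10 genes, 1 had an unadjusted p under 0.05 there, as did 21.5% of all genes.

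**Figure D2:**
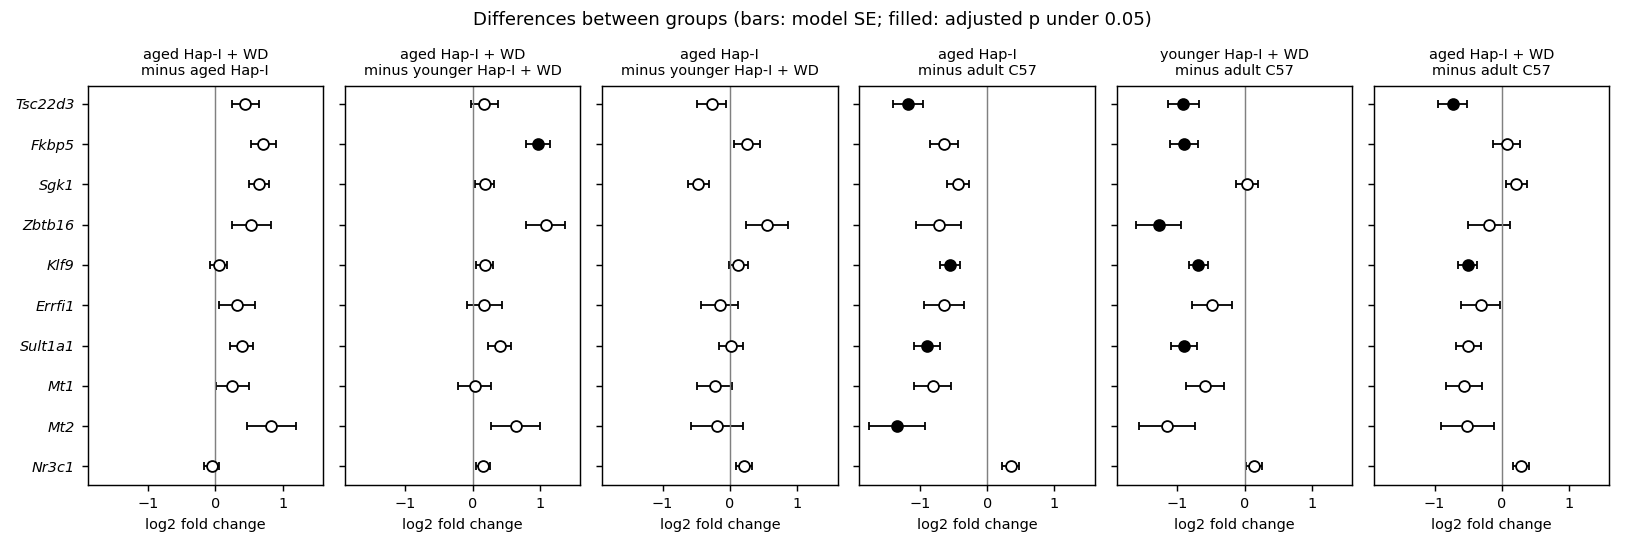
Log2 fold change of each gene (horizontal axis, on log2(scaled TPM + 1)) in 6 comparisons, with genes down the vertical axis; bars are model SEs and filled points have an adjusted p under 0.05. The filled points in the 3 comparisons with C57 lie left of 0, and Fkbp5 is the 1 filled point among Hap-I groups, at 0.97.

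The receptor differed little between groups, and its means were higher in the Hap-I groups than in C57 hearts. Nr3c1 (on chromosome 18) stood at 11.9, 9.12, 11.5, 8.33 and 10.6 scaled TPM in aged western-diet hearts, 9.75, 9.76, 11.9 and 11.4 in aged Hap-I hearts, 8.19, 9.08, 8.59 and 10.6 in younger western-diet hearts, and 7.71, 9.04 and 7.79 in C57 hearts. All 4 aged Hap-I hearts lay above all 3 C57 hearts, while the other groups overlapped with C57. The log2 fold change against C57 was 0.35 ± 0.12 (SE) in aged Hap-I hearts (adjusted p = 0.0792), 0.14 ± 0.12 in younger western-diet hearts (0.557) and 0.29 ± 0.12 in aged western-diet hearts (0.0871), so the receptor passed in none of the 3. A fit of aged Hap-I and C57 hearts alone passed (0.35, adjusted p = 0.0347), and without aged western-diet replicate 4 the last of the 3 passed (0.36, adjusted p = 0.0336).

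Tsc22d3 encodes the glucocorticoid-induced leucine zipper, an anti-inflammatory mediator of the hormone (chrX:140539528-140600659, minus strand, GENCODE M21 on GRCm38). It stood at 36.3, 37.0, 48.4, 52.1 and 34.6 scaled TPM in aged western-diet hearts, 26.1, 32.4, 28.6 and 32.9 in aged Hap-I hearts, 30.98, 26.3, 34.7 and 61.0 in younger western-diet hearts, and 62.2, 62.3 and 84.7 in C57 hearts. The 3 C57 hearts were above all 13 Hap-I hearts, and only younger western-diet replicate 4 came close. Tsc22d3 fell by 1.18 ± 0.23 on the log2 scale in aged Hap-I hearts against C57 (adjusted p = 0.00635), by 0.91 ± 0.23 in younger western-diet hearts (0.0398) and by 0.73 ± 0.22 in aged western-diet hearts (0.0259). The first of these calls held in all 16 refits that each left out 1 heart, and of 11 other settings it was lost without scaling (0.0985). The call in younger western-diet hearts was lost in 10 of the 16 (adjusted p between 0.0513 and 0.178), those without any 1 of the C57 or aged Hap-I hearts or without younger western-diet replicate 1, 2 or 3, and the call in aged western-diet hearts was lost without C57 replicate 1 or 3 (between 0.0521 and 0.127). Both were also lost without scaling, under quantile normalization, with no filter, with the Y-linked or the atrial covariate and among hearts with Y-linked transcripts (between 0.0558 and 0.263), and the call in younger hearts in a fit of those groups alone (0.128). Within Hap-I hearts the order of means ran from aged western-diet through younger western-diet to aged Hap-I. The aged western-diet hearts lay above the aged Hap-I hearts without overlap (0.45 ± 0.20, adjusted p = 0.291), and both overlapped with the younger group.

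Fkbp5 encodes a co-chaperone that lowers the receptor's affinity for hormone and is induced by it, which forms a feedback loop (chr17:28399094-28517527, minus strand). Its level was 7.59, 5.22, 5.78, 8.46 and 3.90 scaled TPM in aged western-diet hearts, 2.81, 2.95, 3.87 and 3.54 in aged Hap-I hearts, 2.49, 2.00, 2.08 and 4.02 in younger western-diet hearts, and 5.12, 6.55 and 5.37 in C57 hearts. All 5 aged western-diet hearts were above all 4 aged Hap-I hearts, and 4 of the 5 were above every younger western-diet heart. Fkbp5 rose by 0.97 ± 0.18 on the log2 scale in aged against younger western-diet hearts (adjusted p = 0.0190), with means of 6.19 ± 1.84 and 2.65 ± 0.94 scaled TPM (SD, n = 5 and 4). That call was lost without younger western-diet replicate 1 or 3 (between 0.0548 and 0.0684), without scaling, in a fit of those groups alone, and among the hearts with Y-linked transcripts, where 2 stood against 2.

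In younger western-diet hearts Fkbp5 fell against C57 (-0.90 ± 0.21, adjusted p = 0.0286). This call was lost in 6 of 16 refits, those without any 1 of the C57 hearts or without younger western-diet replicate 1, 2 or 3 (between 0.0509 and 0.0872). The same call was lost without scaling, with no filter, with either covariate, among hearts with Y-linked transcripts and in a fit of those groups alone (between 0.0654 and 0.191). In aged Hap-I hearts the difference from C57 was -0.64 ± 0.21 (0.0599), with no overlap, and it passed without aged western-diet replicate 4 or 5 or younger western-diet replicate 4 (between 0.0323 and 0.0428) and in a fit of those groups alone (0.00952). In aged western-diet hearts Fkbp5 overlapped with C57, at 0.07 ± 0.20 (0.818). The diet contrast within aged mice was 0.71 ± 0.18 (0.0893) and passed without aged western-diet replicate 5 (0.84, adjusted p = 0.0403). The order of means ran from aged western-diet and C57, which overlapped, to aged Hap-I and younger western-diet, which also overlapped.

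Zbtb16 encodes a zinc-finger transcription factor, also known as PLZF, that is strongly induced by glucocorticoids in many cell types (chr9:48654297-48836222, minus strand). It stood at 7.74, 7.24, 6.35, 2.39 and 2.26 scaled TPM in aged western-diet hearts, 2.83, 2.77, 3.04 and 3.02 in aged Hap-I hearts, 1.03, 1.44, 1.35 and 3.33 in younger western-diet hearts, and 4.74, 6.71 and 5.09 in C57 hearts. The 4 aged Hap-I hearts were the tightest group (SD 0.135), while the 5 aged western-diet hearts formed an upper set of 3 and a lower set of 2. The younger western-diet hearts were all below the C57 hearts, and Zbtb16 fell there by 1.28 ± 0.33 on the log2 scale (adjusted p = 0.0463). That call was lost in 11 of 16 refits (between 0.0525 and 0.127), those without any 1 of the C57 or aged Hap-I hearts, aged western-diet replicate 3, or younger western-diet replicate 1, 2 or 3. It was also lost without scaling, under quantile normalization, with no filter, with the atrial covariate, among hearts with Y-linked transcripts and in a fit of those groups alone (between 0.0520 and 0.111). Aged Hap-I hearts too lay below all C57 hearts (-0.72 ± 0.33, adjusted p = 0.168), a difference that passed among hearts with Y-linked transcripts (-0.73, adjusted p = 0.0283) and in a fit of those groups alone (0.00520). Aged western-diet hearts overlapped with C57 hearts (-0.19, adjusted p = 0.701), but the 2 of them with Y-linked transcripts lay below the C57 hearts, and the difference among hearts with Y-linked transcripts was -0.96 (adjusted p = 0.0283).

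The upper 3 aged western-diet hearts for Zbtb16 were the 3 with Y-linked transcripts near 0. A fit with a mean for each combination of group and Y-linked presence was chosen after this split was seen. It used the same hearts, so its p-values for Zbtb16 describe the split and are not a test of it. In that fit the difference between the 3 and the other 2 was 1.29 ± 0.20 (adjusted p = 0.0147, where 0.35% of all genes passed). In younger western-diet hearts the direction was opposite, at 1.03 to 1.44 scaled TPM without Y-linked transcripts and 1.35 to 3.33 with them. That difference was -0.52 ± 0.22 (2 against 2 hearts, adjusted p = 0.785, 0.0613% of all genes). Among hearts without Y-linked transcripts, aged exceeded younger western-diet hearts by 1.86 ± 0.20 (3 against 2 hearts, adjusted p = 0.000865, 2.86% of all genes). Among hearts with them the difference was 0.06 ± 0.22 (2 against 2, adjusted p = 0.958, 0.158% of all genes). The difference between these differences was 1.80 ± 0.30 and did not pass over all genes (adjusted p = 0.0646, 0.0438% of all genes). Over all hearts the age contrast was 1.09 ± 0.29 (0.0575), and it passed without aged western-diet replicate 4 or 5 or younger western-diet replicate 4 (between 0.0212 and 0.0262).

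Levels of Errfi1 ran the other way in the same hearts, though that difference did not pass. It encodes a feedback inhibitor of the epidermal growth factor receptor family (chr4:150853919-150868892, plus strand), and stood at 4.26, 3.80, 4.79, 8.48 and 9.32 scaled TPM in aged western-diet hearts, 3.44, 4.47, 4.83 and 5.08 in aged Hap-I hearts, 4.32, 3.40, 4.48 and 9.17 in younger western-diet hearts, and 8.16, 5.24 and 9.51 in C57 hearts. The 2 aged western-diet hearts with Y-linked transcripts were above the 3 without. The difference was -0.91 ± 0.25 for those without minus those with (adjusted p = 0.228, where 0.35% of all genes passed). Sgk1 was separated in the same direction, at 20.91 to 25.89 without and 27.85 to 28.22 with (-0.25 ± 0.19, adjusted p = 0.735). In younger western-diet hearts, 2 against 2, Errfi1 was also lower without Y-linked transcripts, at 3.40 to 4.32 against 4.48 to 9.17. Tsc22d3 (26.31 to 30.98 against 34.73 to 61.02) and Klf9 (13.53 to 14.17 against 14.54 to 20.32) were separated likewise there. These differences did not pass (adjusted p = 0.785 each), and Sgk1, Fkbp5 and Zbtb16 overlapped there. Among aged western-diet hearts, Tsc22d3 and Klf9 overlapped. The share of all genes so separated was not counted, so these separations are a description only. Errfi1 passed in no comparison, and its largest difference was -0.64 ± 0.30 in aged Hap-I against C57 hearts (adjusted p = 0.177), with no overlap. That difference passed in a fit of those groups alone (0.0363). All other pairs of groups overlapped.

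Klf9 encodes a Krüppel-like transcription factor that responds to glucocorticoids and to the circadian clock (chr19:23141226-23168134, plus strand). Its level was 18.6, 17.4, 20.98, 18.5 and 13.4 scaled TPM in aged western-diet hearts, 16.5, 18.2, 15.9 and 17.3 in aged Hap-I hearts, 13.5, 14.2, 14.5 and 20.3 in younger western-diet hearts, and 23.9, 29.3 and 23.5 in C57 hearts. All 3 C57 hearts were above all 13 Hap-I hearts, and the Hap-I groups overlapped with each other. Against C57, Klf9 fell by 0.56 ± 0.15 on the log2 scale in aged Hap-I hearts (adjusted p = 0.0247), by 0.68 ± 0.15 in younger western-diet hearts (0.0199) and by 0.51 ± 0.14 in aged western-diet hearts (0.0188). The first call was lost in 6 of 16 refits (between 0.0555 and 0.0852), those without any 1 of the C57 hearts or aged Hap-I replicate 1, 3 or 4, the second in 5 (between 0.0552 and 0.0667), those without any 1 of the C57 hearts or younger western-diet replicate 2 or 3, and the third without C57 replicate 2 (0.0839). Klf9 also lost the first call without scaling (0.430) and under quantile normalization (0.0528). It lost the second and the third without scaling and with the Y-linked or the atrial covariate (between 0.0530 and 0.197), and the second among hearts with Y-linked transcripts (0.149) and in a fit of those groups alone (0.0777).

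Sgk1 encodes a serum- and glucocorticoid-regulated kinase that acts on ion channels and transporters (chr10:21882184-21999903, plus strand). It was the 1 gene of the set that passed the joint test and no single comparison. Its level was 23.7, 20.9, 25.9, 27.9 and 28.2 scaled TPM in aged western-diet hearts, 14.1, 15.0, 13.9 and 20.7 in aged Hap-I hearts, 20.6, 19.6, 20.3 and 29.3 in younger western-diet hearts, and 18.1, 21.9 and 25.3 in C57 hearts. The aged Hap-I group held the 3 lowest hearts, and its highest heart lay just below the lowest aged western-diet heart. The diet contrast within aged mice was 0.65 ± 0.14 (adjusted p = 0.0614), with means of 25.3 ± 3.05 and 15.9 ± 3.20 scaled TPM (SD, n = 5 and 4). It passed without younger western-diet replicate 4 (0.65, adjusted p = 0.0365) and with a covariate for Y-linked transcripts (0.0418), and was 0.80 ± 0.18 (0.0510, 0.999% of all genes) when the 2 aged western-diet hearts with Y-linked transcripts were set against the aged Hap-I hearts, which all had them. Aged Hap-I hearts differed by -0.47 ± 0.15 from younger western-diet hearts (0.108) and by -0.43 ± 0.16 from C57 hearts (0.0997), and the means of the other 3 groups lay within their spread.

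Sult1a1 encodes a phenol sulfotransferase that conjugates small phenolic compounds (chr7:126672865-126676432, minus strand). Its level was 15.7, 20.8, 16.1, 30.3 and 18.3 scaled TPM in aged western-diet hearts, 15.0, 15.8, 12.3 and 16.1 in aged Hap-I hearts, 15.6, 12.1, 15.9 and 15.3 in younger western-diet hearts, and 26.1, 36.0 and 23.9 in C57 hearts. The C57 hearts were above all aged Hap-I and younger western-diet hearts, and aged western-diet replicate 4 alone reached their range. Sult1a1 fell by 0.89 ± 0.19 on the log2 scale in aged Hap-I hearts (adjusted p = 0.0112) and by 0.90 ± 0.19 in younger western-diet hearts (0.0200) against C57. The first call held in all 16 refits and was lost without scaling (0.0612), and the second was lost without C57 replicate 1 or 2 or younger western-diet replicate 2 (between 0.0571 and 0.0678). The second was also lost with the Y-linked or the atrial covariate and among hearts with Y-linked transcripts (between 0.0530 and 0.101). In aged western-diet hearts the difference was -0.50 ± 0.18 (0.0643), and it passed at -0.65 (0.00778) without aged western-diet replicate 4. Of the words of 31 bases in its transcripts, 11.4% occur in other genes, most of them in Gm6939, so part of its reads may have been divided.

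The metallothioneins varied widely between hearts, by 2.93 times from the lowest to the highest heart for Mt1 and 6.64 times for Mt2. Mt1 (chr8:94179082-94180327, plus strand) stood at 88.3, 111.0, 106.6, 176.1 and 67.0 scaled TPM in aged western-diet hearts, 92.4, 112.2, 66.7 and 83.8 in aged Hap-I hearts, 85.0, 151.0, 90.6 and 93.9 in younger western-diet hearts, and 153.7, 121.6 and 195.2 in C57 hearts. Mt2 (chr8:94172664-94173568, plus strand) stood at 19.9, 17.1, 22.03, 60.6 and 15.2 scaled TPM in aged western-diet hearts, 16.2, 15.2, 9.13 and 11.5 in aged Hap-I hearts, 11.6, 25.3, 9.38 and 16.6 in younger western-diet hearts, and 29.0, 25 and 53.0 in C57 hearts. Both genes were highest in the same aged western-diet heart, replicate 4, and in the same younger western-diet heart, replicate 2, and all C57 hearts were above all aged Hap-I hearts for both.

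Mt2 fell in aged Hap-I hearts against C57 by 1.34 ± 0.41 on the log2 scale (adjusted p = 0.0468), with means of 13.0 ± 3.28 and 35.7 ± 15.2 scaled TPM (SD, n = 4 and 3). The call was lost in 10 of 16 refits (between 0.0502 and 0.212), those without C57 replicate 1 or 3, any 1 of the aged Hap-I hearts, aged western-diet replicate 1, 2 or 3, or younger western-diet replicate 1. It was also lost without scaling, under quantile normalization, with no filter, with the length correction, with the Y-linked or the atrial covariate and among hearts with Y-linked transcripts (between 0.0561 and 0.105). Mt1 differed in the same direction in that comparison and did not pass (-0.81 ± 0.28, adjusted p = 0.0725), though it did without aged western-diet replicate 4 or 5 (between 0.0372 and 0.0470) and in a fit of those groups alone (0.0204). In younger western-diet hearts against C57 the values were -1.15 ± 0.41 for Mt2 (0.125) and -0.59 ± 0.28 for Mt1 (0.251), and Mt2 passed without aged western-diet replicate 4 (0.0481). In aged western-diet hearts against C57 they were -0.51 ± 0.39 for Mt2 (0.371) and -0.56 ± 0.27 for Mt1 (0.147), and without aged western-diet replicate 4 Mt1 passed (-0.74, adjusted p = 0.0353).

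**Figure D3:**
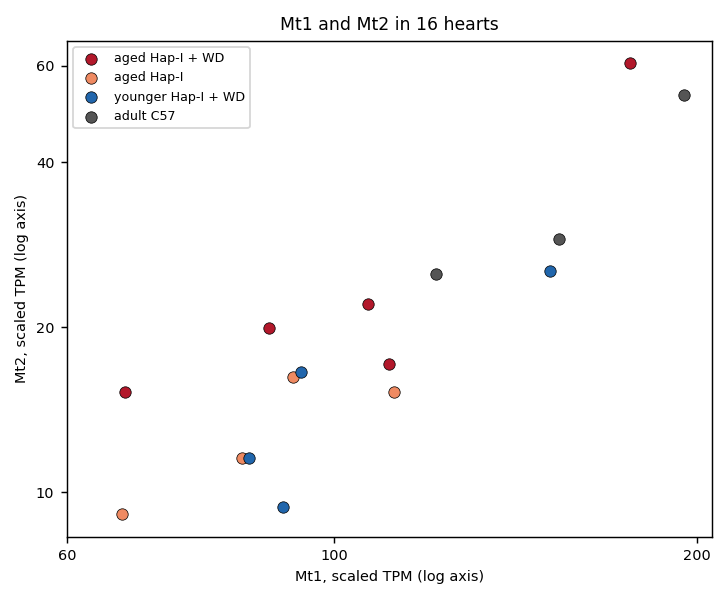
Mt1 on the horizontal and Mt2 on the vertical axis, both in scaled TPM on log axes, with 1 point per heart coloured by group. The points run along a diagonal within as well as between groups, and aged western-diet replicate 4 (176.1 and 60.6) lies beside the C57 hearts.

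Levels of the metallothionein pair were not in a fixed ratio. Mt1 exceeded Mt2, both per length, by 2.91 to 6.48 times in aged western-diet hearts (median 4.44), 5.70 to 7.38 times in aged Hap-I hearts (7.28), 5.67 to 9.66 times in younger western-diet hearts (6.65) and 3.68 to 5.29 times in C57 hearts (4.87). The ratio in aged Hap-I and younger western-diet hearts was above that in C57 hearts in every heart, so Mt2 was the lower by more. The level of Mt2 is uncertain: 58.1% of its words of 31 bases occur in other genes, 57.6% in the antisense gene Gm45774, which was not analysed here. The library kit keeps the strand, per the labels' protocols, but whether the authors' quantification used it is not given in the sources used here. Mt1 shares no such word.

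Across the 16 hearts the 10 genes moved together in part, and Mt1 with Mt2 most closely. Of 45 pairs, 16 had a permutation p for Pearson's r under 0.05 after Benjamini-Hochberg adjustment, 15 of them positive. For Mt1 and Mt2, Pearson's r was 0.88 and Spearman's rho 0.88 (permutation p = 1e-05 for each, the smallest the permutations can give, adjusted p = 0.00045), r was 0.78 without the 2 hearts farthest from the median of Mt1, and 0.89 with group means removed. For Tsc22d3 and Klf9, r was 0.81 and rho 0.82 (permutation p = 0.00012 and 0.00029, adjusted p = 0.0027 and 0.00652), r was 0.77 without the 2 farthest hearts, and 0.66 with group means removed. Both pairs thus kept a positive r once group means were removed, and that r was not tested. The permutations moved hearts across groups, so their p-values do not test a relation within groups. Not every group followed it for Tsc22d3 and Klf9. The C57 heart with the highest Tsc22d3 (84.69 scaled TPM) had the lowest Klf9 of its group (23.49).

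Removal of the group means changed other pairs unevenly. Younger western-diet replicate 4, the highest of its group for Tsc22d3, Fkbp5, Zbtb16 and Klf9, enters each r with group means removed, and its weight was not tested. For Fkbp5 and Zbtb16, r was 0.76 and rho 0.73 (permutation p = 0.0008 and 0.00186, adjusted p = 0.012 and 0.0131), 0.93 without the 2 hearts farthest from the median of Fkbp5, and 0.40 with group means removed. For Zbtb16 and Klf9 they were 0.73 and 0.75 (permutation p = 0.00118 and 0.00112, adjusted p = 0.0133 and 0.0126), 0.89 without the 2 farthest hearts, and 0.69 with group means removed. For Tsc22d3 and Sult1a1, r was 0.72 and rho 0.77 (permutation p = 0.00188 and 0.00084, adjusted p = 0.0141 and 0.0126), 0.66 without the 2 farthest hearts and 0.26 with group means removed. For Fkbp5 and Klf9, r was 0.65 and rho 0.73 (permutation p = 0.00624 and 0.00204, adjusted p = 0.0255 and 0.0131), 0.79 without the 2 farthest hearts and 0.71 with group means removed. The 1 negative pair was Mt1 and Nr3c1, with r of -0.69 and rho of -0.63 (permutation p = 0.00319 and 0.0105, adjusted p = 0.0179 and 0.043), -0.58 without the 2 farthest hearts and -0.56 with group means removed.

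**Figure D4:**
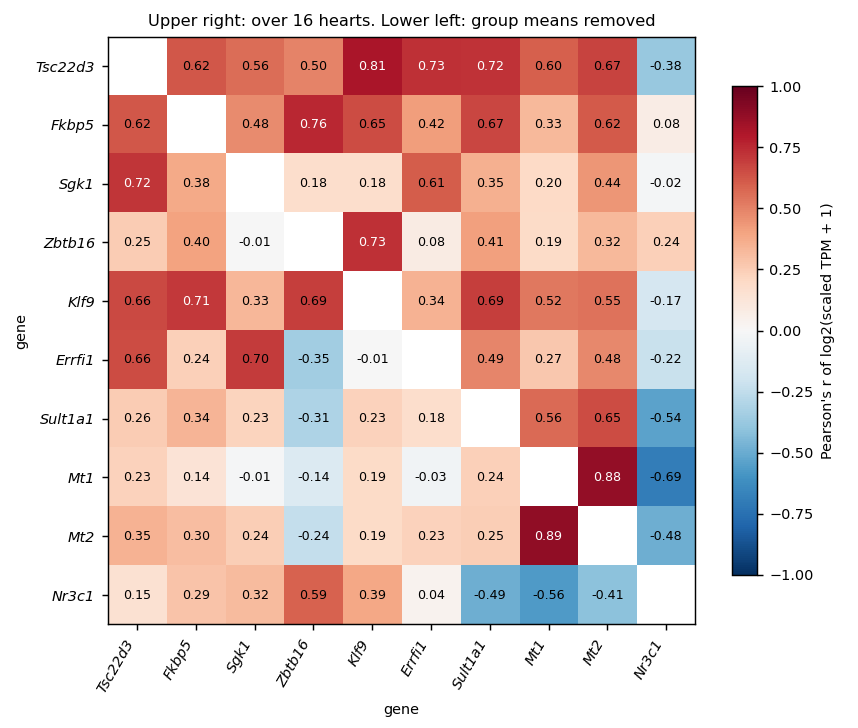
Pearson's r between the levels, log2(scaled TPM + 1), of each pair of genes over 16 hearts (upper right) and after each group's mean was removed (lower left), with genes on both axes and r given by colour and number. Mt1 and Mt2 stay at 0.88 and 0.89, whereas Tsc22d3 and Sult1a1 go to 0.26 in the lower triangle.

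The genes outside the set whose levels followed each member most closely were sought among 6026 genes with a mean of at least 5 scaled TPM, by Pearson's r over the 16 hearts, given here as a description. Klf9 was followed by Herpud1 (r = 0.96, and 0.95 with group means removed), Gpcpd1 (0.90) and Sesn1 (0.88). For Nr3c1 the closest were Dcaf7 (0.95), Erbin (0.94) and Kif1b (0.94), and for Zbtb16 they were Wipf3 (0.91), Rhobtb1 (0.87) and Foxo3 (0.86). Tsc22d3 was followed by Amd1 (0.88), S1pr1 (0.88) and Gm49342 (0.87), and Fkbp5 by Midn (0.87), Mxd4 (0.87) and Inafm2 (0.82). Sgk1 was followed by Spry1 (0.83), Kcna5 (0.79) and Depp1 (0.79), and Errfi1 by Irgm1 (0.82), Anxa3 (0.81) and S1pr1 (0.80). For Mt1 the closest were Map1lc3a, Myoz2 and Pim3 (0.87 each), for Mt2 Ly6c1 (0.82), Pim3 (0.81) and Rgcc (0.80), and for Sult1a1 Rgcc (0.84), Cd59a (0.80) and Slc25a33 (0.78).

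A further list of 30 genes known as glucocorticoid targets, of which 27 were tested, moved in both directions. Between aged Hap-I and C57 hearts 5 fell and 0 rose, where 11.2% of all genes were called, with a median log2 fold change of -0.16 (-0.01 over all genes). Among them were Cebpb, a transcription factor of the acute response (2.41 ± 0.29 against 7.35 ± 0.53 scaled TPM, -1.29, adjusted p = 0.00380), Nfkbia, the inhibitor of NF-kappaB (8.56 ± 1.40 against 17.2 ± 2.54, -0.93, adjusted p = 0.00584), and Anxa1, an anti-inflammatory annexin (12.1 ± 0.74 against 18.9 ± 0.86, -0.60, adjusted p = 0.00534; SD, n = 4 and 3). These 3 calls held in all 16 refits, and Nfkbia and Anxa1 lost theirs without scaling. Cebpb shares 19.6% of its words of 31 bases with other genes, most with the overlapping Tmem189.

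Between aged western-diet and C57 hearts 3 of the 27 rose and 3 fell, a share close to the 21.9% of all genes called there, with a median of 0.02 (-0.00 over all genes). Cdkn1a, a cell-cycle inhibitor, rose there (14.5 ± 5.56 against 5.69 ± 1.70 scaled TPM, SD, n = 5 and 3; 1.17, adjusted p = 0.00791) and kept its call in all 16 refits, while Anxa1 fell (-0.49, adjusted p = 0.00492; lost without scaling, with the atrial covariate and among hearts with Y-linked transcripts, between 0.0601 and 0.0816). Dusp1, a phosphatase that inactivates MAP kinases, rose (1.12, adjusted p = 0.0140) as did Klf15, a cardiac Krüppel-like factor (0.94, adjusted p = 0.0191). Dusp1 lost its call without C57 replicate 2 (0.0579) and Klf15 without C57 replicate 3 (0.0981). Both were also lost with the Y-linked or the atrial covariate (between 0.0602 and 0.124), and Klf15 among hearts with Y-linked transcripts (0.153).

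Pdk4, a pyruvate dehydrogenase kinase induced by fasting, fatty acids and glucocorticoids, was called in 4 comparisons. It was the 1 gene of the 27 called with diet in aged mice, where 0.166% of all genes were called. Pdk4 rose there (110.8 ± 40.1 scaled TPM in aged western-diet and 33.7 ± 4.95 in aged Hap-I hearts, SD, n = 5 and 4; 1.62, adjusted p = 0.0203). The call was lost without any 1 of the aged Hap-I hearts or aged western-diet replicate 3 (between 0.0501 and 0.0856) or with the atrial covariate (0.0668). Against C57, Pdk4 fell in aged Hap-I hearts (-0.98, adjusted p = 0.0457). This call was lost in 10 of 16 refits (between 0.0510 and 0.180), those without any 1 of the C57 or aged Hap-I hearts or younger western-diet replicate 1, 2 or 3. It was also lost without scaling, under quantile normalization, with no filter, with the length correction and with either covariate (between 0.0567 and 0.159). In aged Hap-I against younger western-diet hearts, where 2.14% of all genes were called, 2 of the 27 fell and 0 rose. They were Pdk4 (-2.58, adjusted p = 0.000169) and Angptl4, a lipoprotein lipase inhibitor (-2.04, adjusted p = 0.00219). Both calls were kept in all 16 refits, and that of Angptl4 was lost among hearts with Y-linked transcripts (0.0822). Against C57, where 3.45% of all genes were called, younger western-diet hearts had 1 target higher and 2 lower. The higher one was Pdk4 (207.3 ± 36.3 against 72.2 ± 36.7 scaled TPM, adjusted p = 0.0104). Its call was lost without C57 replicate 1 or 3 (between 0.0618 and 0.0678) and among hearts with Y-linked transcripts (0.0779). Anxa1 fell (-0.51, adjusted p = 0.0212), a call lost without C57 replicate 1 or 3 or younger western-diet replicate 3 (between 0.0643 and 0.0970). The call was also lost without scaling, with either covariate and in a fit of those groups alone (between 0.0581 and 0.0858). Per1, a clock gene that glucocorticoids also induce, fell by 1.41 (adjusted p = 0.0329). That call was lost without C57 replicate 1 or 3 or younger western-diet replicate 1, 2 or 3 (between 0.0620 and 0.128). Other losses came without scaling, with no filter, with either covariate, among hearts with Y-linked transcripts and in a fit of those groups alone (between 0.0771 and 0.189). Aged against younger western-diet hearts had 0 called in either direction with limma. There 7 of the 27 had an unadjusted p under 0.05, as did 19.7% of all genes.

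Of 20 genes that load, modify or serve the receptor, 19 were tested. Against C57, 5 rose and 2 fell in aged Hap-I hearts (median 0.14, and -0.01 over all genes), where 11.2% of all genes were called. In aged western-diet hearts 5 rose and 2 fell (median 0.10, and -0.00 over all genes), where 21.9% were called. With limma 0 were called in younger western-diet hearts (7 had an unadjusted p under 0.05, as did 20.4% of all genes). Nr3c2, the mineralocorticoid receptor, which also binds corticosterone, averaged 3.02 ± 0.51 scaled TPM in aged western-diet hearts and 3.60 ± 0.48 in aged Hap-I hearts, against 1.91 ± 0.45 in C57 hearts (SD, n = 5, 4 and 3; 0.47, adjusted p = 0.0228, and 0.67, adjusted p = 0.0100). Both calls were lost without C57 replicate 3 (0.132 and 0.0625). Ncor1, a corepressor, averaged 29.2 ± 1.42 and 29.1 ± 1.75 in the same Hap-I groups against 19.9 ± 1.61 in C57 hearts (0.53, adjusted p = 0.00291, and 0.53, adjusted p = 0.00880; the second was lost without C57 replicate 3 at 0.0501). Ptges3, the p23 co-chaperone of the receptor complex, fell in both (-0.44, adjusted p = 0.00710, and -0.61, adjusted p = 0.00380), with both calls kept in all 16 refits. It shares 20.9% of its words of 31 bases with other genes. Each of these calls of Nr3c2, Ncor1 and Ptges3 was lost without scaling (between 0.0546 and 0.217). In aged western-diet hearts Nr3c2 and Ptges3 also lost theirs with the atrial covariate (0.132 and 0.0615), Nr3c2 in a fit of those groups alone (0.0590) and Ptges3 among hearts with Y-linked transcripts (0.0556).

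In aged against younger western-diet hearts 2 of the 19 rose and 0 fell, where 2.39% of all genes were called, among them Ep300, a coactivator (3.37 ± 0.54 against 2.16 ± 0.39 scaled TPM, SD, n = 5 and 4; 0.47, adjusted p = 0.0348). Its call was lost without aged western-diet replicate 1 or 3 or younger western-diet replicate 1, 2 or 3 (between 0.0784 and 0.131). Further losses came without scaling, with no filter, with either covariate, among hearts with Y-linked transcripts and in a fit of those groups alone (between 0.0522 and 0.660). In aged Hap-I against younger western-diet hearts 1 fell and 0 rose (2.14% of all genes called), Ptges3 (-0.43, adjusted p = 0.0345), a call lost without any 1 of the aged Hap-I hearts or younger western-diet replicate 1 or 2 (between 0.0692 and 0.104). This call of Ptges3 was lost, too, without scaling, under quantile normalization, with the stricter filter, with the Y-linked covariate and among hearts with Y-linked transcripts (between 0.0529 and 0.703). Diet within aged mice called 0 with limma (4 with an unadjusted p under 0.05, beside 15.9% of all genes).

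Genes of zinc handling were called in 2 of the 6 comparisons. Of 19 listed, 17 were tested, and their median log2 fold change lay between -0.01 and 0.07 in the 6 comparisons. In aged western-diet against C57 hearts, where 21.9% of all genes were called, 2 rose and 1 fell, a share not above that of all genes. The zinc transporter Slc30a9 rose (0.56, adjusted p = 0.0136), and its call was kept in all 16 refits and lost without scaling and with the atrial covariate (between 0.125 and 0.136). So did Mtf1, the metal-responsive factor that drives metallothionein genes (3.37 ± 0.44 against 2.32 ± 0.42 scaled TPM, SD, n = 5 and 3; 0.40, adjusted p = 0.0371). The gene that fell was Mt3 (0.62 ± 0.76 against 3.99 ± 2.84; -1.52, adjusted p = 0.0235). Mt3, the metallothionein known from the brain, lost its call without C57 replicate 1 or 3 (0.0992 to 0.133), with no filter, with the atrial covariate, among hearts with Y-linked transcripts and in a fit of those groups alone (0.0558 to 0.377). Mtf1 lost its call without C57 replicate 1 or 3 or aged western-diet replicate 2, 3 or 4 (between 0.0614 and 0.170), in these same 4 settings, without scaling and under quantile normalization (between 0.0653 and 0.265). In aged Hap-I against C57 hearts 1 fell and 0 rose (11.2% of all genes called), Slc30a6 (-0.49, adjusted p = 0.0496). The call was lost in 12 of 16 refits (between 0.0525 and 0.233), all but those without C57 replicate 3, aged Hap-I replicate 1 or aged western-diet replicate 1 or 2, and in 7 of 11 other settings (between 0.0573 and 0.338). The other 4 comparisons called 0 with limma. Between 1 and 4 genes had an unadjusted p under 0.05 in each, as did 15.9% to 21.5% of all genes.

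Relatives of the set moved in both directions. Of 19 listed paralogs, 18 were in the table and 12 were tested. Klf15, Nr3c2, Mt3 and Fkbp4 are also on the lists above, so any call of theirs is counted again here. Tsc22d1, a paralog of Tsc22d3 with the same leucine zipper fold, was higher per length than Tsc22d3 in every group. It fell against C57 too (113.0 ± 13.6 scaled TPM in aged western-diet and 102.5 ± 3.69 in aged Hap-I hearts, against 149.2 ± 4.46 in C57 hearts, SD, n = 5, 4 and 3; -0.41, adjusted p = 0.00884, and -0.54, adjusted p = 0.00588). Both calls were kept in all 16 refits and lost without scaling (0.0619 and 0.163). The call of Tsc22d1 in aged western-diet hearts was also lost with the atrial covariate, among hearts with Y-linked transcripts and in a fit of those groups alone (between 0.0514 and 0.140). Zbtb20, of the same protein family as Zbtb16, rose in aged western-diet hearts against C57 (8.90 ± 1.00 against 4.33 ± 0.29; 0.89, adjusted p = 0.000720), a call that held in all 16 refits and all 11 other settings. It also rose in aged against younger western-diet hearts (0.73, adjusted p = 0.0151), a call lost without younger western-diet replicate 1 (0.0593), without scaling, among hearts with Y-linked transcripts and in a fit of those groups alone (between 0.0522 and 0.186). In all, aged western-diet against C57 hearts had 3 of the 12 higher and 2 lower (21.9% of all genes called), aged Hap-I against C57 hearts 2 and 2 (11.2%), and aged against younger western-diet hearts 1 and 0 (2.39%). The other 3 comparisons called 0 with limma (between 4 and 5 with an unadjusted p under 0.05, beside 15.9% to 21.5% of all genes).

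Clock genes differed between the same groups. All 16 clock genes listed were detected, and their summed level was 126.3 to 167.5 scaled TPM in aged western-diet hearts, 145.3 to 167.7 in aged Hap-I hearts, 94.2 to 108.9 in younger western-diet hearts and 175.2 to 193.5 in C57 hearts. Dbp, an output gene of the clock, averaged 8.06 ± 2.02, 8.36 ± 1.84 and 2.91 ± 1.08 in the Hap-I groups in that order, against 14.8 ± 2.63 in C57 hearts (SD, n = 5, 4, 4 and 3). Dbp fell by 2.05 in younger western-diet against C57 hearts (adjusted p = 0.000281), while Arntl, a core clock gene that peaks in the opposite phase, rose by 1.96 (adjusted p = 8.77e-05). In that comparison 3 of the 16 clock genes rose and 9 fell, where 3.45% of all genes were called, and all 16 had an unadjusted p under 0.05, as did 20.4% of all genes. In aged against younger western-diet hearts, the comparison that called Fkbp5, 4 rose and 1 fell (2.39% of all genes called). In aged Hap-I against C57 hearts 2 rose and 3 fell (11.2%), and in aged western-diet against C57 hearts 3 rose and 6 fell (21.9%). In aged Hap-I against younger western-diet hearts 8 rose and 2 fell (2.14%). Diet within aged mice called 0 of the 16 with limma (5 with an unadjusted p under 0.05, beside 15.9% of all genes). The part of the clock phase in the differences of the glucocorticoid-responsive genes was not tested, and the hour of collection is not given in the sources used here.

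Immediate early genes, which handling and tissue collection can raise, were called in 1 comparison. Of 8 listed, 7 were tested (Fosb stayed under 1 TPM in all hearts), and Fos rose in younger western-diet against C57 hearts (5.36 ± 2.11 against 1.08 ± 0.46 scaled TPM, SD, n = 4 and 3; 1.57, adjusted p = 0.0378), where 3.45% of all genes were called. The other 5 comparisons called 0 with limma (0 to 3 with an unadjusted p under 0.05, beside 15.9% to 35.5% of all genes). The call of Fos was lost in 8 of 16 refits (between 0.0523 and 0.136), those without any 1 of the C57 hearts, aged Hap-I replicate 2 or 4, or younger western-diet replicate 1, 2 or 3. Fos also lost it with no filter, with either covariate and among hearts with Y-linked transcripts (between 0.0605 and 0.102). The summed level of the list was 24.2 to 80.1 in aged western-diet hearts, 29.8 to 38.0 in aged Hap-I hearts, 41.5 to 76.6 in younger western-diet hearts and 20.8 to 33.5 in C57 hearts, so younger western-diet hearts lay above C57 hearts without overlap. Its part in the differences of the 10 genes was not tested.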

How the data were processed

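RNA was extracted from mouse hearts and polyadenylated transcripts were sequenced from stranded libraries, per the labels' protocols. The authors deposited 1 table of TPM per gene for 16 libraries, and kallisto, DESeq2 and GRCm38 are named in the submitters' processing notes, with no versions stated. TPM keep no depth, which leaves the depth unknown. The printed SDs measure the spread between hearts, and the SEs come from the fit of all 4 groups. Both include counting noise, which was not estimated apart. Column sums ran from 942090 to 959772, and no pair of columns was identical.

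A gene was tested when 3 or more libraries reached 1 TPM (11415 genes). Size factors (median of ratios, 0.682 to 1.239) turned TPM into scaled TPM, and log2(scaled TPM + 1) was fitted with limma 3.58.1 (variance trend, R 4.3.3) on all libraries with 1 mean per group. Fold changes are on that scale, which understates changes of low genes. Benjamini-Hochberg adjustment ran over all tested genes within each of 6 comparisons and a joint F test, at a threshold of 0.05. The procedure was tested on simulated data. Correlations used 1e+05 permutations.

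All 10 genes are named. Of the other lists, up to 4 called genes per comparison by smallest p were eligible, and clock and immediate early genes named were chosen after their values were seen. A called gene of the receptor list is not reported here. The members and lists were chosen with earlier results of these data known. Alternatives were no scaling, quantile normalization, a pseudocount of 0.1, a stricter filter (5 TPM) or none, a fit without the variance trend, covariates for Y-linked or atrial transcripts, libraries with Y-linked transcripts only (mean of 4 genes at 1 TPM or more), a lowess correction for transcript length, the groups compared only, and omission of each library. The fit by group and Y-linked presence was chosen after seeing the data. Shared words of 31 bases were counted over GENCODE M21 transcripts, and promoter windows are RefSeq's.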

Additional observations from a re-analysis of the deposited data

Results flagged for a closer look

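In 30 combinations of gene and group with 4 or 5 hearts, 6 held a heart that stood apart from the rest of its group. The genes share hearts, so the combinations are not independent, and the rate by chance was not measured. The C57 group, with 3 hearts, was not examined. Younger western-diet replicate 4 was high for Sgk1, at 29.3 scaled TPM against 19.6 to 20.6 in the other 3, and for Klf9, at 20.3 against 13.5 to 14.5. Though not flagged there, this heart was also the highest of its group for Tsc22d3 (61.0), Fkbp5 (4.02), Zbtb16 (3.33), Errfi1 (9.17) and Nr3c1 (10.6). For Mt1, Mt2 and Sult1a1 it was not. Its length correlation was 0.184, against -0.254 to -0.161 in the other 3, and the part of this was not tested. Younger western-diet replicate 2 was high for Mt1, at 151.0 against 85.0 to 93.9, and low for Sult1a1, at 12.1 against 15.3 to 15.9. Aged western-diet replicate 4 was high for Mt2, at 60.6 against 15.2 to 22.03 in the other 4. Aged Hap-I replicate 4 was high for Sgk1, at 20.7 against 13.9 to 15.0.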

How the results depend on the processing

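Of 1880 refits of the 10 genes in single comparisons and the joint test, 1724 kept the side of the threshold. Of the rest, 132 lost a call and 24 gained one, and 0 turned a called direction. Only results called in the main fit could lose a call, and these make up the smaller part of the 1880 refits. The 132 set against 1880 therefore understate how often calls were lost. Of 55 calls of genes outside the set, 23 held in all omissions and 9 also in all other settings. Among the 10 genes, younger western-diet against C57 hearts gave 5 calls, and 1 with a covariate for Y-linked transcripts, 0 with the atrial covariate, 2 with no filter, 1 without scaling, 0 in libraries with Y-linked transcripts, 1 with only the groups compared, 3 under quantile normalization and 0 to 6 over omissions. Aged Hap-I against C57 hearts gave 4, and 0 without scaling, 9 with only the groups compared, 2 under quantile normalization and 2 to 6 over omissions. The count of all genes called also moved with the setting, from 225 to 2486 in this comparison. The 9 and the other counts per alternative setting or omission are not set against the all-gene count of the same fit. They are not read as results about the 10 genes. Aged western-diet against C57 hearts gave 2, and 0 with either covariate, 1 with no filter, 0 without scaling, 1 under quantile normalization and 1 to 5 over omissions (5 without aged western-diet replicate 4). Aged against younger western-diet hearts gave 1, and 0 without scaling, in libraries with Y-linked transcripts or with only the groups compared, and 0 to 2 over omissions. The fit by group and Y-linked presence gave 2 (Fkbp5 and Zbtb16) in libraries without Y-linked transcripts, where 2.86% of all genes were called. It was chosen after the split in Zbtb16 was seen, so that call is not independent of the split. In libraries with Y-linked transcripts the same fit gave 0 (0.158% of all genes). Diet within aged mice gave 0, and 1 with the Y-linked covariate and 0 to 1 over omissions, aged Hap-I against younger western-diet hearts gave 0 throughout the omissions, and the joint test gave 6, and 3 with the atrial covariate, 2 without scaling, 3 in libraries with Y-linked transcripts and 4 to 7 over omissions. The causes were not tested, except that the fits of fewer libraries hold fewer samples. Without scaling the median of all genes shifted to between -0.16 and 0.27. Over all settings the count of all called genes ran from 4 to 135 for diet within aged mice (main 19), 5 to 570 for aged against younger western-diet hearts (273), 10 to 733 for aged Hap-I against younger western-diet hearts (244), 225 to 2486 for aged Hap-I against C57 hearts (1282), 66 to 576 for younger western-diet against C57 hearts (394), 614 to 2700 for aged western-diet against C57 hearts (2496) and 582 to 2826 for the joint test (2086). No paired analysis was possible because the labels give no replicate numbers, and replicates are numbered in accession order. The p-values measure the spread between these hearts, in groups of 3 to 5.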
